A study of Mus musculus with 12 samples.

Results

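The comparison described here was that of liver from mice lacking Aag with liver from wild-type mice when neither had been treated. It rests on 6 of the 12 arrays of the study, 3 from knock-out and 3 from wild-type animals, and covers every probe set other than the array's own controls, 22626 in all. Both genotypes were C57Bl/6J mice aged 6 to 8 weeks, and each array held the liver RNA of 1 animal. The other 6 arrays came from mice of the same 2 genotypes given a single intraperitoneal dose of 75 mg/kg methyl methanesulfonate (MMS), a DNA-methylating agent, with liver collected 6 hours later. They served here to estimate the spread and to show whether a genotype difference was also seen in other animals. The labels do not say whether the controls received a vehicle injection, whether the genotypes were littermates, how the gene was deleted or at what hour livers were taken.

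Aag, whose gene is named Mpg, is a glycosylase that cuts alkylated and deaminated purines out of DNA and so opens base excision repair, in which an endonuclease, a polymerase and a ligase then replace the base. Mice without it are viable, and the enzyme is known for setting how tissues respond to alkylating drugs. A comparison without a drug asks what the liver transcriptome looks like before any such damage is added. Liver RNA from whole tissue mixes hepatocytes with other cells, so fewer cells of a type and less RNA per cell cannot be told apart.

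Of all probe sets, 9 (0.0398%) differed between the untreated genotypes in limma at a Benjamini-Hochberg adjusted p below 0.05, 4 higher (0.0177%) and 5 lower (0.0221%) in the knock-out. They named 7 genes. With each gene read at its brightest probe set, 6 of 12393 genes (0.0484%) were called, and the values did not overlap for 967 genes that were higher (7.8%) and 1342 that were lower (10.8%). Pttg1, encoding securin, the inhibitor of the enzyme that separates sister chromatids, was lower at all 3 of its probe sets. Nr1d1, Nr1d2 and Dbp, 3 transcription factors of the circadian clock, were higher, as was a probe set of Sphk2, a sphingosine kinase. Rfxank, a subunit of the factor that binds promoters of MHC class II genes, and Akr1d1, a reductase of bile acid and steroid metabolism, were each lower at 1 probe set. At an unadjusted p below 0.05 there were 1620 probe sets (7.16%), 755 higher (3.34%) and 865 lower (3.82%). The 3 knock-out and 3 wild-type values did not overlap for 4140 probe sets (18.3%), with 1702 higher (7.52%) and 2438 lower (10.8%), and 186 (0.822%) differed at least 2-fold. The count of 9 became 4 without wild-type array 1 or 3, 14 without wild-type array 2, 5 without knock-out array 1 and 18 without knock-out array 3, and it was 5 without any one of treated wild-type arrays 1 and 3 and treated knock-out arrays 1 and 2. The split of 4 higher and 5 lower became 5 and 3 when each array was centred on its median and 4 and 3 after a further quantile normalization. Centring also turned the balance of genes without overlap, from 967 higher and 1342 lower to 1559 higher and 638 lower. Which side held more genes thus depended on the scale of the arrays.

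The untreated arrays had median log2 values of 7.48 to 7.75. Hepatocyte markers were high and close together: the mean of 16 markers ran from 13.94 to 13.97 in wild-type and from 13.93 to 13.97 in knock-out arrays. The log2 ratio of 5' to 3' signal at actin and Gapdh control probe sets, a sign of RNA integrity, was -2.41 to -2.28 in wild-type and -2.66 to -2.33 in knock-out arrays. The 3 knock-out arrays were not alike. Array 3 was closest not to its own group but to treated knock-out array 3 (r = 0.988 over all probe sets). Treated wild-type array 1 and treated knock-out array 3 were also closest to an array outside their groups (r = 0.989 each). Untreated knock-out array 3 stood far from the others in clock genes, while arrays 1 and 2 stood above the other 10 in several transcripts of sperm. Both patterns are described below, and values without array 3 are also given for some of the genes that it moved strongly. A gene given without such a value may still depend on that array.

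Mpg itself was read by 2 probe sets. At the first the wild-type log2 values were 6.21, 6.49 and 6.58 and the knock-out values 5.44, 5.60 and 4.95. Every knock-out array was below every wild-type array, and the same held among treated animals, where the difference was -1.24. The untreated difference of -1.10 ± 0.21 (SE of the fit, n = 3 each) fell short of the threshold (adjusted p = 0.356, limma), and its exact two-sided permutation p of 0.1 is the smallest that 3 against 3 can give. The second probe set held 7.94, 8.12 and 7.84 in wild-type and 7.36, 7.75 and 7.88 in knock-out liver, groups that overlap, with a difference of -0.31 (adjusted p = 0.804, limma), or -0.16 without knock-out array 1. It is not known whether the sequence read by these probe sets was among what was deleted, so the signal that remains is no check of the genotype.

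**Figure D1:**
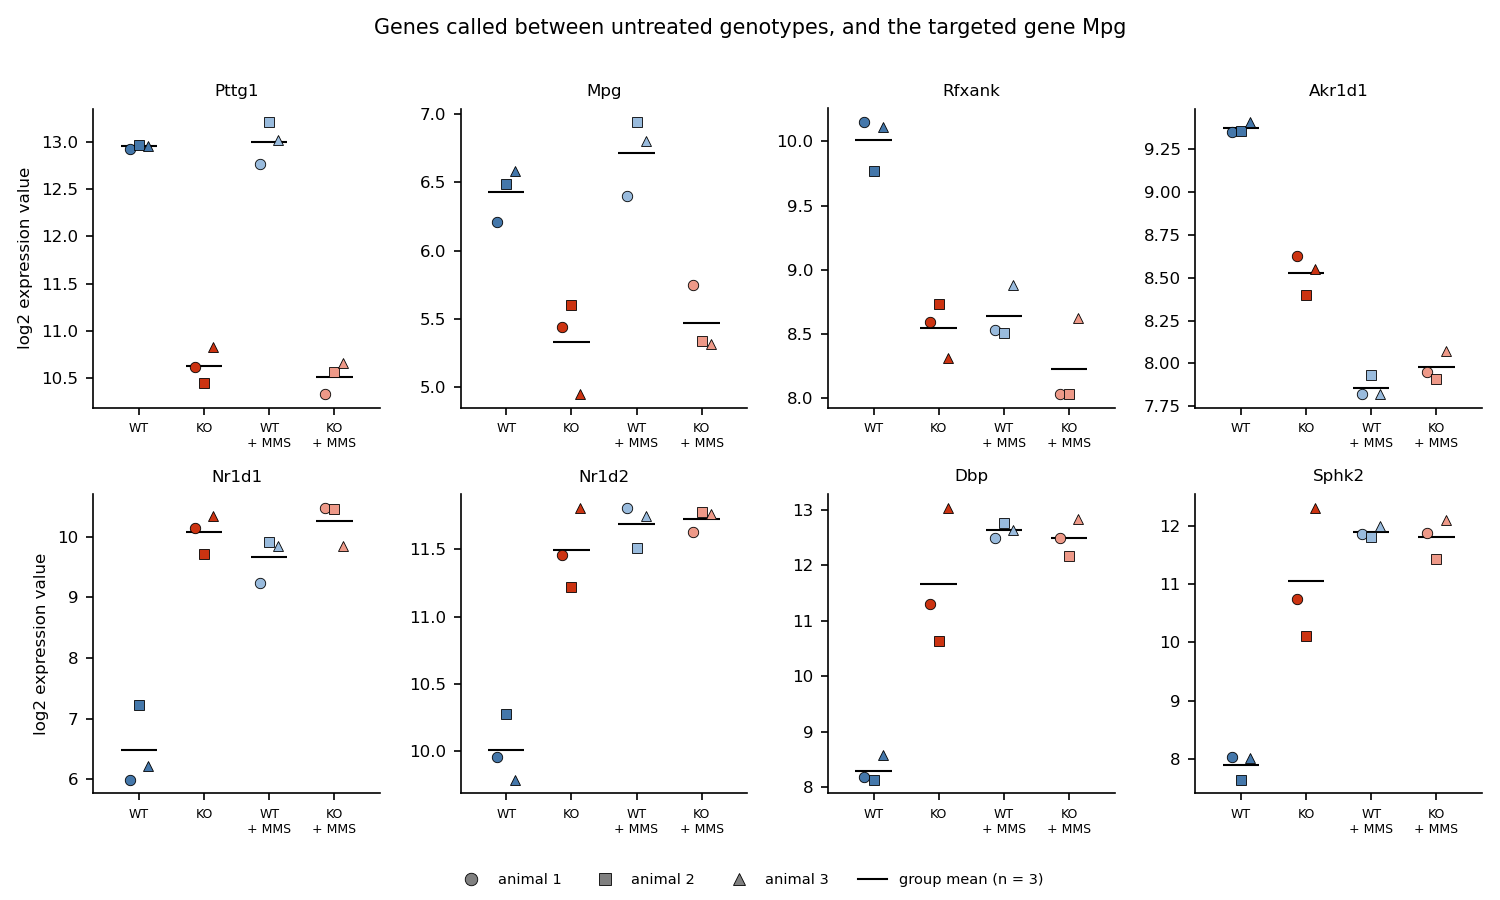
Log2 expression value (vertical axes, 1 scale per panel) of Mpg and the 7 genes called between untreated genotypes, in wild-type (WT) and knock-out (KO) liver without and with MMS. Each symbol is 1 animal and each line a mean of 3. Pttg1 and Mpg are low in all 6 knock-out animals, whereas the other genes, at the probe sets drawn, separate the genotypes only without MMS.

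Pttg1 was the most clearly separated gene on the array. At its brightest probe set the wild-type values were 12.93, 12.97 and 12.96 and the knock-out values 10.62, 10.45 and 10.83. The groups lay over 2 log2 units apart, and the spread within each was small (SD 0.02 and 0.19). The knock-out was lower by 4.99-fold (log2 difference -2.32 ± 0.15, adjusted p = 9.35e-05, limma). The other probe sets gave -2.73 ± 0.18 and -2.86 ± 0.19 (adjusted p = 9.35e-05 and 0.000104). In treated animals, which share no array with this comparison, the 3 probe sets differed by -2.49, -2.47 and -2.87. All 3 stayed past the threshold under every other setting in which they were tested, including each array left out in turn. Pttg1 and Mpg both lie on chromosome 11, with 28 measured genes between them in the RefSeq gene order. None of the 28 was called, and 2 had untreated groups that did not overlap, against 18.6% of all 12393 genes. Of the 28, 0 did so the same way with and without MMS, against 1.15% of all genes. That share is too low for a count among 28 genes to say much. The median difference of the 28 was 0.00. On chromosome 11 as a whole, 14 of 1041 genes (1.34%) did not overlap the same way in both treatments.

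The 10 measured genes on each side of Mpg were also read, and none was called. Hba-a1, an alpha-globin gene, had the smallest p of them, with values of 5.33, 5.51 and 5.54 in wild-type and 5.89, 6.16 and 5.77 in knock-out liver (0.48 ± 0.14, adjusted p = 0.436, limma). Those values do not overlap, but in treated animals the knock-out was on the other side, at -0.76. The alpha-globin genes are near-identical copies, so their probe sets may share signal. The brighter probe set of Hba-a2, also among these neighbours, went the opposite way to that of Hba-a1. Without MMS its difference was -0.35 ± 0.22 (adjusted p = 0.809, limma), with groups that did not overlap. With MMS the Hba-a2 difference was 0.52, with overlapping groups. No common direction of alpha-globin was thus shown. Rhbdf1, a pseudoprotease next to Mpg, differed by 0.59 ± 0.27, and Nprl3 on its other side, a regulator of nutrient signalling, by -0.12 ± 0.17 (adjusted p = 0.698 and 0.938). Without knock-out array 3 these were 0.31 and -0.27.

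The circadian clock of the liver turns on a loop in which Arntl (BMAL1), paired with Clock or Npas2, switches on the Per, Cry, Nr1d and Dbp genes through E-boxes in their promoters. The Nr1d1 and Nr1d2 products then shut Arntl, Npas2, Nfil3 and Cry1 off through retinoid-orphan receptor elements. Genes of the first kind therefore peak by day and evening and genes of the second kind around dawn. Neither motif was found in the 250 bases before the RefSeq start of Nr1d1 or Dbp. Windows around those found in other members are shown to give the letters of both motifs in clock genes of either list (RefSeq promoters, GRCm38.p6, searched on both strands). Capitals mark the E-box CACGTG in Cry1 (chr10:85185079-85185144, minus strand) and Tef (chr15:81802516-81802581, plus strand) and the core AGGTCA of a retinoid-orphan receptor element in Nr1d2 (chr14:18239148-18239213, minus strand).
Cry1: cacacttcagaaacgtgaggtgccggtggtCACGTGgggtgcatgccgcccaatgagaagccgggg
Tef: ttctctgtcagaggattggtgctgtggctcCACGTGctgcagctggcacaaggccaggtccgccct
Nr1d2: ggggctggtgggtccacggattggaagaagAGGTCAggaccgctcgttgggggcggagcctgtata
Among all 32851 promoters of that length, 1978 (6.02%) held the E-box and 4607 the AGGTCA core. The E-box was in 3 of 10 evening genes and 1 of 5 dawn genes with a promoter in the table, and the core in 2 of each. A match is a description of the letters and no evidence of binding.

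Nr1d1, which encodes the repressor REV-ERB alpha, had values of 5.99, 7.22 and 6.21 in wild-type and 10.15, 9.72 and 10.34 in knock-out liver. The lowest knock-out value lay more than 2 log2 units above the highest wild-type value. It was 12.1-fold higher (3.60 ± 0.33, adjusted p = 0.00158, limma). Nr1d2, its close relative and the one whose window is printed above, rose by 1.49 ± 0.18 (adjusted p = 0.0170), from 9.96, 10.28 and 9.79 to 11.46, 11.22 and 11.81. Again no knock-out animal reached into the wild-type range. A second Nr1d2 probe set gave 1.32 ± 0.27 and did not pass (adjusted p = 0.356, limma). The Nr1d2 call was lost without wild-type array 1 (adjusted p = 0.154) or 3 (0.127) or knock-out array 1 (0.0924), whereas Nr1d1 kept its call with any single array left out. When the 6 untreated arrays were fitted alone neither passed (adjusted p = 0.173 for Nr1d1 and 0.351 for Nr1d2).

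Dbp, a transcription factor that carries the rhythm to enzymes of detoxification, held 8.19, 8.14 and 8.58 in wild-type and 11.31, 10.64 and 13.04 in knock-out liver. All 3 knock-out values were higher, and array 3 stood well above the other two. The rise was 3.36 ± 0.47 (10.3-fold, adjusted p = 0.0450, limma), and it was 2.67 ± 0.25 without knock-out array 3 (adjusted p = 0.00261). A second Dbp probe set showed 2.57 ± 0.56 and did not pass (adjusted p = 0.356). Sphk2 gave the same picture at 1 probe set, with 8.03, 7.64 and 8.02 against 10.74, 10.11 and 12.32 (3.16 ± 0.43, adjusted p = 0.0434). Without knock-out array 3 it was 2.53 ± 0.24 (adjusted p = 0.00277). The other Sphk2 probe set gave -0.02 ± 0.22, and 0.25 ± 0.17 without that array. The Dbp and Sphk2 genes overlap at their ends in the RefSeq table, so the 2 probe sets may read shared sequence, and they are not counted here as independent. Both calls were lost without any one of wild-type arrays 1, 2 and 3, knock-out array 1 or any single treated array, with adjusted p of 0.0856 to 0.307.

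Of 12 measured day and evening genes 3 rose, Nr1d1, Nr1d2 and Dbp, and 9 were not called. Their median difference was 0.54, against -0.02 over all genes, and 6 had groups that did not overlap upwards and 1 downwards (58.3% not overlapping, against 18.6% of all genes). Tef, a partner of Dbp whose E-box window is shown, held 10.66, 10.31 and 10.59 against 11.08, 10.81 and 12.16 (0.83 ± 0.28, adjusted p = 0.561). Its groups did not overlap, with array 3 again the highest, and without that array the Tef difference was 0.43 ± 0.16. Other Tef probe sets gave 1.74 ± 0.32 and 0.23 ± 0.14 with all arrays, and neither passed. Per1, Per2 and Per3, the period genes, had overlapping groups at their brightest probe sets and differences of 0.05, 0.34 and 1.05. Without knock-out array 3 these were -0.60, -0.20 and 0.07, so the sign turned for Per1 and Per2. For Per3 the values were 8.67, 7.66 and 9.22 against 8.63, 8.54 and 11.52, so that only array 3 was apart at that probe set. A dimmer Per3 probe set held 5.01, 4.98 and 4.50 against 5.36, 5.48 and 5.23, without overlap (0.53 ± 0.21, adjusted p = 0.617, limma). Another gave 0.18 ± 0.19 with overlapping groups. Rora, the activator that competes with the Nr1d proteins, went the other way at -0.55 ± 0.21 (adjusted p = 0.606). Without knock-out array 3 the median of the list was 0.18.

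None of the 5 dawn genes was called, but 4 had knock-out values all below wild type (80.0%, against 10.8% of all genes), and the median was -1.17 (-0.96 without array 3). Cry1, a repressor of the loop, held 10.95, 10.65 and 11.20 in wild-type and 9.62, 10.12 and 9.55 in knock-out liver (-1.17 ± 0.22, adjusted p = 0.356, limma). Nfil3, a repressor that opposes Dbp on the same sites, held 10.94, 10.86 and 10.85 against 9.83, 9.96 and 9.34. For both genes all 3 knock-out animals lay within 1 log2 unit of each other. This was not so for Arntl, with 10.83, 10.81 and 11.01 against 10.07, 10.20 and 7.06, nor for Npas2, with 10.20, 10.04 and 9.78 against 8.89, 9.20 and 5.89. In these genes knock-out array 3 lay about 3 log2 units under the other two, and without it the differences of -1.78 and -2.01 became -0.75 and -0.96. Clock held 10.50 and 10.63 in arrays 1 and 2, inside the wild-type range, and 9.48 in array 3.

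**Figure D2:**
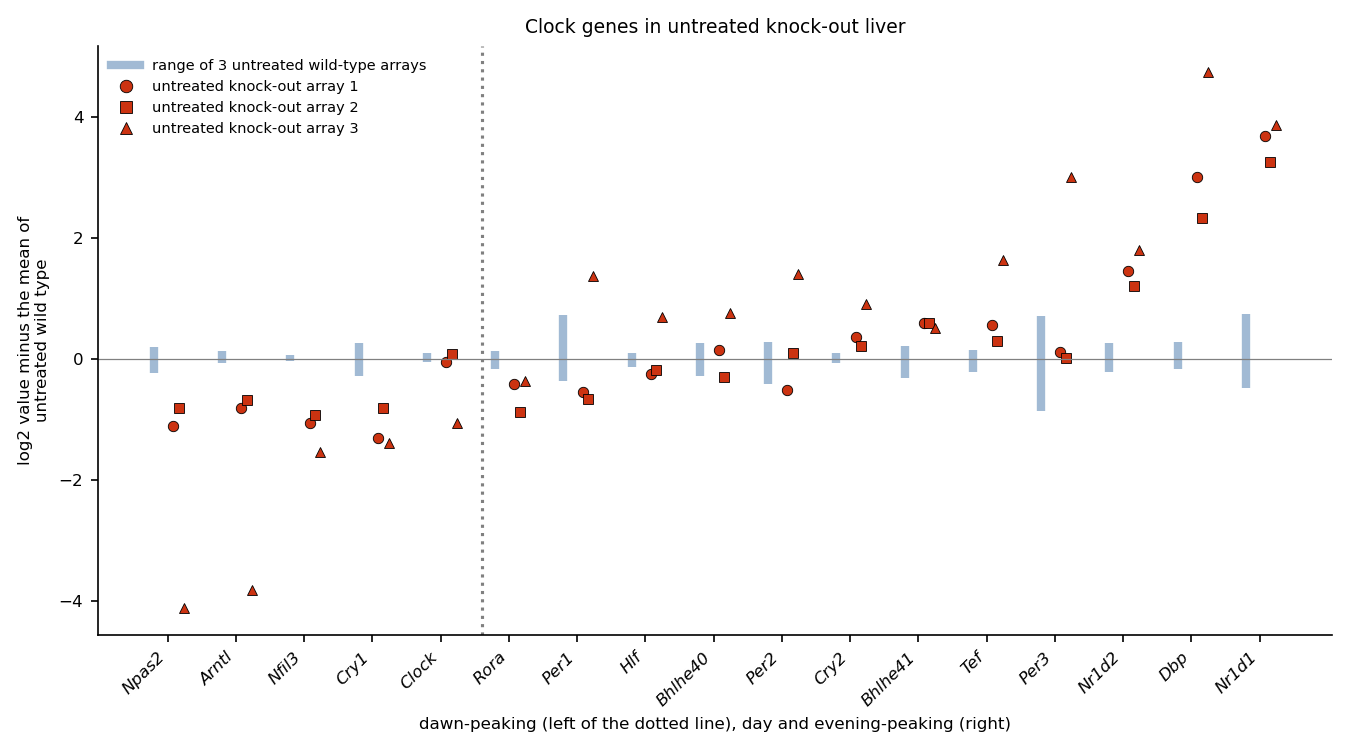
Log2 value of 17 clock genes in each untreated knock-out array after subtracting the mean of untreated wild type (vertical axis), with genes along the horizontal axis. Bars show the range of the 3 wild-type arrays. Arrays 1 and 2 both lie above the bar for 6 of 12 day and evening genes, Nr1d1, Dbp and Nr1d2 among them, and below it for 3. Both lie below it for 4 of 5 dawn genes, Nfil3, Arntl, Npas2 and Cry1. Array 3 lies farther out for most genes.

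A score, the mean of evening genes minus the mean of dawn genes with each gene centred over the 12 arrays, set the animals in order. It was -2.50, -2.29 and -2.20 in untreated wild-type liver, -0.77, -1.20 and 1.76 in untreated knock-out liver, and 0.87 to 1.60 in the 6 treated animals. Knock-out arrays 1 and 2 thus fell between the untreated wild-type and the treated animals, and array 3 was the highest of all 12. The score is made of the genes described above and is no separate evidence. With it as a covariate the differences of Nr1d1 and Nr1d2 were 3.18 and 1.14 (adjusted p = 0.125 and 0.211, limma), and those of Dbp and Sphk2 1.65 and 1.60 (0.134 and 0.139). In treated animals the genotypes overlapped at these genes, and the differences were 0.59 ± 0.33 for Nr1d1, 0.03 ± 0.18 for Nr1d2 and -0.14 ± 0.47 for Dbp. The test of the difference between the 2 genotype effects gave -3.01 ± 0.46 for Nr1d1 (adjusted p = 0.0649), short of the threshold. Collection time and genotype cannot be told apart here. Of 17 other liver genes tied to the clock only Sphk2 was called. Rgs16, a regulator of G-protein signalling that follows feeding, held 5.69, 4.54 and 5.62 against 8.31, 6.76 and 10.78 (3.33 ± 0.85, adjusted p = 0.417).

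Rfxank fell by 1.47 ± 0.20 at its brightest probe set (adjusted p = 0.0404, limma), with values of 10.15, 9.77 and 10.11 in wild-type and 8.59, 8.73 and 8.31 in knock-out liver. The groups were a full log2 unit apart. Its other 2 probe sets gave -0.66 and -0.52 and did not pass (adjusted p = 0.499 and 0.571). In treated wild-type liver the level was already 8.64 ± 0.21 (SD, n = 3), close to that of the untreated knock-out. The call was lost when any single untreated array other than wild-type array 2 was left out (adjusted p = 0.0573 to 0.299), or any treated array but knock-out array 3 (0.0635 to 0.0967). It was also lost with each array centred on its median (-1.37, adjusted p = 0.0920) and after quantile normalization (-1.38, adjusted p = 0.110). None of the 9 measured MHC class II genes was called, and all 9 differences were positive, with a median of 0.36. Cd74, the invariant chain, held 11.87, 11.75 and 11.75 against 12.58, 12.08 and 11.89.

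Akr1d1 fell by 0.85 ± 0.11 at 1 probe set (adjusted p = 0.0282, limma), from 9.35, 9.36 and 9.41 to 8.63, 8.40 and 8.55. The second Akr1d1 probe set gave -0.11 ± 0.12 (adjusted p = 0.913), so the 2 disagree about the size of the difference. Leaving out any single untreated array but knock-out array 3 ended the call (adjusted p = 0.0782 to 0.223), as did leaving out treated wild-type array 1 or 3 or treated knock-out array 1 or 2 (0.0555 to 0.0689), centring (-0.75, adjusted p = 0.0920) and quantile normalization (-0.74, adjusted p = 0.0745). In treated liver the first probe set was lower still and alike in both genotypes, at 7.86 ± 0.07 and 7.97 ± 0.09 (SD, n = 3 each). Of the 23 measured genes of bile acid synthesis and transport, none was called, 18 were positive and the median was 0.10. Slco1a4, a bile acid and drug uptake carrier, was the most different at 0.91 ± 0.26, with overlapping groups.

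Genes that came next in order of p had untreated groups that did not overlap but did not pass the threshold. On the higher side were Meig1, a protein of sperm formation (1.06 ± 0.17, adjusted p = 0.136, limma), and Wnk4, a kinase that regulates ion transport (1.22 ± 0.20, adjusted p = 0.139). Wnk4 held 6.66, 7.13 and 6.59 against 8.08, 7.85 and 8.11, a clear gap. Casp6, an executioner caspase, held 8.84, 9.23 and 8.74 against 9.89, 9.62 and 9.90 (0.87 ± 0.18, adjusted p = 0.356). Adamdec1, a secreted metalloprotease, held 7.42, 7.27 and 7.24 against 8.29, 8.05 and 8.14 (0.85 ± 0.17, adjusted p = 0.356). It was also higher in all 3 treated knock-out animals than in any treated wild-type animal, by 1.17. By contrast Trp53i13, Plxna1, a semaphorin receptor, and Lingo1, a nerve growth inhibitor, were higher without MMS (0.64, 0.65 and 0.91) and lower with it (-0.53, -0.54 and -0.68), with no overlap in either case.

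On the lower side, Neu3, a membrane sialidase (-1.04 ± 0.20), Gins1, part of the replicative helicase (-0.81 ± 0.16), Acnat2, an acyltransferase of peroxisomes (-1.21 ± 0.25), and Cap1, an actin regulator (-1.17 ± 0.24), all had an adjusted p of 0.356 in limma. So did Dnmt3b, a DNA methyltransferase (-1.14 ± 0.24), whose values were 10.51, 10.69 and 10.73 against 9.76, 9.88 and 8.86. Without knock-out array 3 the Dnmt3b difference was -0.82 ± 0.17. Another Dnmt3b probe set gave -0.34 ± 0.51 (-0.13 without knock-out array 3), and that of Cap1 gave -0.26 ± 0.29. Scd2, a fatty acid desaturase, and Aqp8, a water channel, differed by -0.66 ± 0.14 and -0.74 ± 0.16 and had the opposite sign in treated animals (0.74 and 0.72). Other Scd2 probe sets gave -0.32 ± 0.17 and -0.29 ± 0.26, and 0.12 and 0.61 with MMS, with overlapping groups throughout. Pdk4, the kinase that shuts down glucose oxidation in fasting, held 11.55, 11.79 and 12.23 against 10.87, 11.03 and 10.87 (-0.93 ± 0.19). The shared adjusted p reflects the adjustment, in which genes of different raw p are given 1 value.

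The endoplasmic reticulum folds secreted proteins with chaperones and disulfide isomerases, and the unfolded protein response raises these when folding fails, through the factors ATF6 and XBP1 acting on the ER stress response element. None of 33 measured chaperone and degradation genes was called. The groups did not overlap for 12 of them (36.4%, against 18.6% of all genes), 11 lower and 1 higher, with a median of -0.09. This balance moved with the scale: with each array centred on its median, 4 were lower and 3 higher and the median was 0.01. Over all 12393 genes the centred median was 0.07, with 638 lower and 1559 higher without overlap. A few members differed far more than the rest. Derl3, part of the channel that exports misfolded proteins, held 9.55, 9.50 and 8.14 in wild-type and 7.08, 7.95 and 6.12 in knock-out liver (-2.01 ± 0.63, adjusted p = 0.503, limma). Pdia4, a disulfide isomerase, held 9.83, 9.95 and 10.17 against 8.99, 8.57 and 8.10 (-1.43 ± 0.40, adjusted p = 0.426). Sdf2l1, a chaperone partner, held 9.02, 8.85 and 8.79 against 7.77, 8.08 and 6.87 (-1.31 ± 0.34, adjusted p = 0.422). In all 3 genes every knock-out animal was below every wild-type animal. A second Pdia4 probe set gave -0.20 ± 0.18. Without knock-out array 3 the brighter Pdia4 probe set gave -1.20 ± 0.44 and Sdf2l1 -0.96 ± 0.31.

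These 3 genes differed as much between treated animals, at -2.80 for Derl3, -1.41 for Pdia4 and -1.92 for Sdf2l1. With Edem1, a lectin of the degradation pathway (-0.43 and -0.30), they were the 4 of 33 members that did not overlap the same way in both treatments, against 143 of 12393 genes (1.15%). A second Edem1 probe set overlapped without MMS (-0.25 ± 0.17) and did not with MMS (-0.52). Pdia6, another isomerase, had tight values of 11.51, 11.46 and 11.48 against 10.79, 11.07 and 10.87 without treatment. Its difference was -0.57 ± 0.14 (adjusted p = 0.403, limma), and -0.02 with MMS. A second Pdia6 probe set gave -0.33 ± 0.23 with overlapping groups, and -0.61 without overlap with MMS. Hspa5 (BiP), the main chaperone, held 12.73, 12.94 and 12.94 against 12.58, 13.05 and 12.58, groups that overlap, and Creld2, a sensitive marker of folding stress, overlapped as well (-0.31 ± 0.35). Without knock-out array 3 the differences were -0.05 for Hspa5 and -0.20 for Creld2. Creld2 separated the genotypes only among treated animals, by -1.10.

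**Figure D3:**
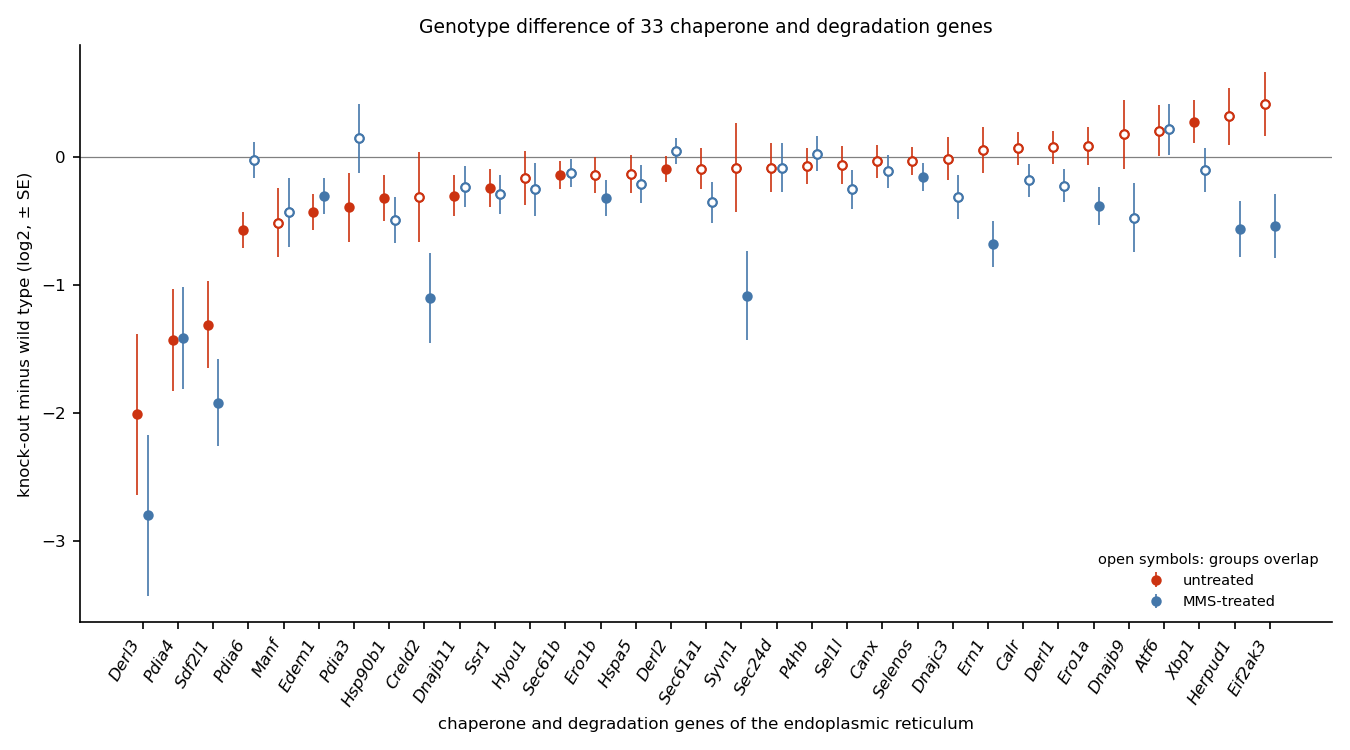
Knock-out minus wild type (vertical axis, log2, bars ± SE of the fit) for 33 chaperone and degradation genes (horizontal axis), without and with MMS. Filled symbols mark genes whose groups of 3 did not overlap. Derl3, Pdia4 and Sdf2l1 lie below -1 in both treatments, while most other genes lie near 0 without MMS.

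The ER stress response element is shown in 4 of these promoters because it occurs both in genes whose untreated groups were apart (Derl3, Pdia6) and in genes whose groups overlapped (Hspa5, Creld2). Capitals mark the element, searched on both strands as CCAAT and CCACG with 9 bases between them, in RefSeq promoters of GRCm38.p6, all on the plus strand: Derl3 at chr10:75893212-75893290, Pdia6 at chr12:17266461-17266539, Hspa5 at chr2:34771995-34772073 and Creld2 at chr15:88819490-88819568.
Derl3: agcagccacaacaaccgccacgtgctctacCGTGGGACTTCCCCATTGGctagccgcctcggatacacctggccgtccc
Pdia6: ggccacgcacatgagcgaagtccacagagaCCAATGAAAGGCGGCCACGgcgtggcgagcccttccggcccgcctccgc
Hspa5: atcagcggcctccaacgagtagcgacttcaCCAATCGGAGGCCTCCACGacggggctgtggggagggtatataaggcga
Creld2: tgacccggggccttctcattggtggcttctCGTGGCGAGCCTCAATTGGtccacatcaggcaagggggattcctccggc
In Derl3 and Creld2 the element reads on the opposite strand, and each element holds a CCAAT box within it. It was in 10 of the 28 list genes with a promoter in the table (35.7%), against 37 of 32851 promoters (0.113%).

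Other transcripts that were at least 2-fold apart without overlap in both treatments were few, 11 probe sets in all (0.0486%). They were the 3 of Pttg1, those of Derl3, Pdia4 and Sdf2l1, 1 of Mpg, and single probe sets of Hyou1, Nucb2 and Lcn2, all lower in the knock-out, and 1 probe set without a gene name. Hyou1, an ER chaperone, held 8.36, 8.50 and 8.85 against 7.33, 7.39 and 5.91 at this probe set (-1.69 ± 0.38, adjusted p = 0.356, limma, and -1.77 with MMS). Without knock-out array 3 the untreated Hyou1 difference there was -1.21 ± 0.28. A brighter Hyou1 probe set gave -0.16 and a dimmer one -0.24, so the gene as a whole was not shown to differ. Nucb2, a calcium-binding secreted protein, held 9.05, 8.44 and 8.20 against 7.43, 7.39 and 7.54 (-1.11 ± 0.26). Lcn2, an acute phase protein of hepatocytes and neutrophils, differed by -1.38 ± 0.49, and by -2.79 with MMS. The probe set without a gene name was far apart in the other direction, with 5.85, 5.87 and 5.89 in wild-type and 10.76, 7.46 and 11.96 in knock-out liver (4.19 ± 0.85, adjusted p = 0.356). It held 6.39, 6.25 and 6.00 in treated wild-type and 9.45, 10.68 and 10.51 in treated knock-out animals, so that all 6 knock-out animals lay above all 6 wild-type animals, by differing amounts. Without knock-out array 3 its untreated difference was 3.24 ± 0.74.

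**Figure D4:**
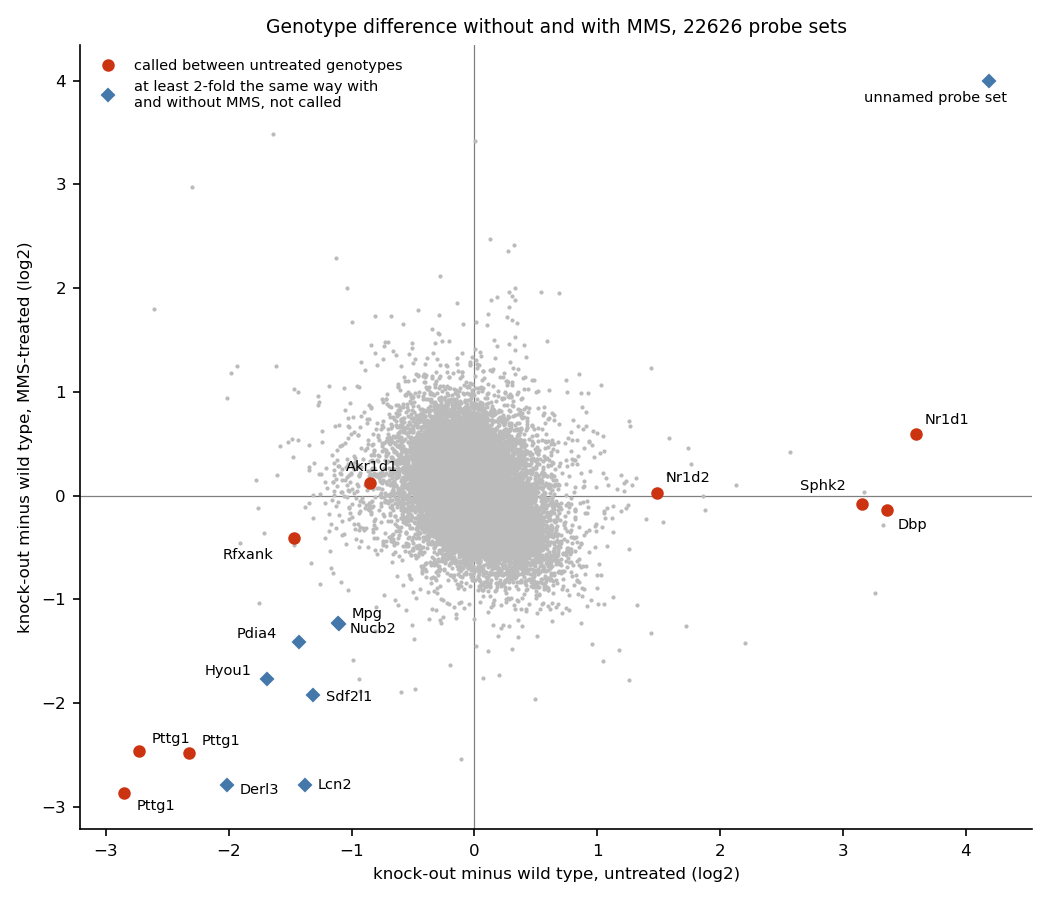
Knock-out minus wild type without MMS (horizontal axis, log2) and with MMS (vertical axis, log2) for each of 22626 probe sets. Red circles mark the 9 probe sets called without MMS and blue diamonds the others at least 2-fold apart the same way in both. The clock genes lie near 0 on the vertical axis, and Pttg1 lies below -2 on both.

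Across all probe sets, the untreated and treated genotype differences, which share no array, had a Pearson correlation of -0.256 (22626 probe sets, which are not independent of each other). Groups did not overlap the same way in both for 243 probe sets (1.07%), 71 higher (0.314%) and 172 lower (0.76%), and in opposite directions for 593 (2.62%). The 243 were 5.87% of those that did not overlap without MMS and 6.09% of the 3989 (17.6%) that did not with MMS. The difference of the genotype effects was called for 0 probe sets by limma (smallest adjusted p = 0.0649), with 4009 at an unadjusted p below 0.05 (17.7%), and for 158 probe sets without untreated knock-out array 3 and 104 without treated knock-out array 3.

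Base excision repair proceeds through the glycosylase, the endonuclease Apex1, polymerase beta and the ligases. None of 16 measured genes of the pathway was called, 11 were negative, and the median was -0.08, against -0.02 over all genes. Lig1, the replicative ligase, held 8.08, 7.36 and 8.85 against 6.93, 6.47 and 7.15 (-1.25 ± 0.33, adjusted p = 0.422, limma). Fen1, the flap nuclease, held 11.13, 10.77 and 11.48 against 10.20, 10.66 and 10.57 (-0.65 ± 0.24). Both have groups that do not overlap, and in both wild-type array 2 was the lowest of its group. Of 6 measured genes of direct reversal and mismatch repair, none was called, with a median of -0.39.

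Lig1 and Fen1 also serve replication, and in the list of 29 cell cycle genes 26 differences were negative, with a median of -0.63 (-0.72 without knock-out array 3). Pttg1 was the 1 member called. The groups did not overlap for 5 members, all lower (17.2%, against 18.6% of all genes). Mcm4, a subunit of the replicative helicase, held 10.68, 9.77 and 10.83 against 9.45, 9.42 and 9.54 (-0.95 ± 0.27, adjusted p = 0.426, limma). Mcm3, another subunit, held 8.84, 7.56 and 9.02 against 7.59, 7.33 and 7.45. In both the knock-out animals were close together, and wild-type array 2 lay near them and apart from wild-type arrays 1 and 3. Among 25 targets of p53, none was called and the median was -0.05. Cdkn1a, the p21 inhibitor of the cell cycle, held 9.27, 9.05 and 10.64 against 8.03, 8.68 and 6.52 (-1.91 ± 0.51, adjusted p = 0.422), and Ddit4, an inhibitor of growth signalling, 10.53, 10.75 and 11.39 against 9.49, 9.76 and 9.85 (-1.19 ± 0.31). Neither overlapped, and neither had that difference in treated animals (-0.45 and 1.06). Without knock-out array 3 the untreated differences were -1.30 ± 0.42 for Cdkn1a and -1.26 ± 0.35 for Ddit4.

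No gene was called in the lists of PERK and ATF4 targets, heat shock proteins, NRF2 targets, proteasome or ribosome biogenesis, whose medians were -0.18 to -0.06. Trib3, a pseudokinase induced by amino acid and ER stress, stood out with 7.78, 8.07 and 7.77 against 9.72, 8.61 and 10.89 (1.87 ± 0.45, adjusted p = 0.402, limma). The order of the 3 knock-out animals there was that seen in Dbp, and without array 3 the Trib3 difference was 1.29 ± 0.33. Immediate early genes were not called either, although Egr1, a growth-response factor, held 11.02, 8.97 and 9.97 against 13.09, 12.14 and 11.35 (2.21 ± 0.65, adjusted p = 0.450). Its wild-type animals spread over 2 log2 units.

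Interferon-induced genes differed in small steps. None of 28 was called, 22 were negative, 9 had groups that did not overlap downwards and 2 upwards (39.3% not overlapping, against 18.6%), and the median was -0.18. With arrays centred on their medians 5 were lower and 1 higher, with a median of -0.08, against 0.07 over all genes when centred. Oasl1, an antiviral protein, held 8.83, 8.62 and 8.81 against 8.23, 8.10 and 7.85 (-0.69 ± 0.15, adjusted p = 0.356, limma), and Ifit1 differed by -0.60 ± 0.18. In treated animals both were higher in the knock-out, by 0.86 and 0.45, and the median of the list was 0.38.

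Metabolic lists held no calls apart from the clock-linked genes. Fatty acid and triglyceride synthesis had 18 of 22 negative and a median of -0.21, with Acacb, the carboxylase that guards mitochondrial fat import, at -1.16 ± 0.37 (adjusted p = 0.527, limma). In cholesterol synthesis the median was -0.07, and Pmvk, a kinase of the mevalonate route, held 11.74, 11.62 and 12.08 against 11.07, 10.95 and 10.85 (-0.86 ± 0.20, adjusted p = 0.356). Its groups were apart by more than 0.5 log2 units. Fat oxidation and PPAR alpha targets had 9 of 27 members higher without overlap and 1 lower, the lower one being Pdk4. That was 37.0% not overlapping, against 18.6% of all genes, and the median was 0.06. This count too depends on scale: when centred, 15 were higher and 1 lower, against 1559 and 638 of all 12393 genes. Among gluconeogenic and glucocorticoid-driven genes, G6pc, the last enzyme of glucose release, held 13.13, 13.29 and 13.31 against 12.18, 12.17 and 12.53 (-0.95 ± 0.34, adjusted p = 0.566). Tat, tyrosine aminotransferase, held 11.71, 11.91 and 12.07 against 11.02, 11.24 and 11.18 (-0.75 ± 0.19, adjusted p = 0.422). Drug-metabolising P450 genes had 9 of 29 higher and 2 lower without overlap (37.9%, against 18.6% of all genes) and a median of 0.08. Phase II conjugation, complement and coagulation, urea cycle and hepatocyte transcription factors had medians of -0.02 to 0.06 and no call.

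No marker of another cell type was called. The medians were -0.29 for 17 stellate cell and fibroblast markers, -0.14 for 11 bile duct markers, -0.07 for 18 endothelial markers, 0.11 for 18 macrophage markers, 0.20 for 20 lymphocyte markers and 0.07 for 13 neutrophil markers. The mean level of the stellate markers was 8.91 to 9.64 in wild-type and 8.86 to 8.97 in knock-out arrays, and Acta2, smooth muscle actin, held 8.86, 8.31 and 9.52 against 8.11, 8.11 and 6.75 (-1.24, and -0.79 without knock-out array 3). The bile duct keratin Krt19 held 7.69, 7.41 and 7.45 against 6.45, 6.94 and 6.15 (adjusted p = 0.609, limma), and with MMS the knock-out lay above wild type (1.67). Erythroid, pancreatic acinar and adipocyte lists had medians of -0.04, 0.01 and 0.14. Car2, a carbonic anhydrase of red cells, was the member farthest apart among the erythroid markers, with 10.11, 9.53 and 10.21 against 9.03, 8.65 and 9.37 (-0.94 ± 0.22). The part of these cells in the results above was not tested.

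Knock-out arrays 1 and 2 held several transcripts of male germ cells at levels above those of the other 10 arrays. These were looked up after their values had been seen, so no test is given for the list. Prm1, the protamine that packs DNA in the sperm head, held 8.76 and 8.16 in knock-out arrays 1 and 2 and 3.67 in array 3, against 3.82, 3.69 and 3.56 in wild type and 3.48 to 4.26 in the 6 treated animals. A second Prm1 probe set held 8.50 and 7.93, then 3.80, and it also held 5.74 in treated wild-type array 3, against 3.16 to 3.66 in the other 8 arrays. The brightest Prm1 probe set, at 7.35 to 8.41 in all 12 arrays, did not set these arrays apart. Ldhc, the lactate dehydrogenase of testis, held 6.48 and 6.11, then 3.03, against 3.24, 3.26 and 3.48. Prm2 held 8.40 and 8.09, then 6.34, and Tnp1, a protein that precedes the protamines on DNA, 7.15 and 6.72, then 4.80. Only 7 of 22626 probe sets had both arrays above all 10 others by more than 2-fold, and the 5 with a gene name were those of Prm1, Prm2, Tnp1 and Ldhc.

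**Figure D5:**
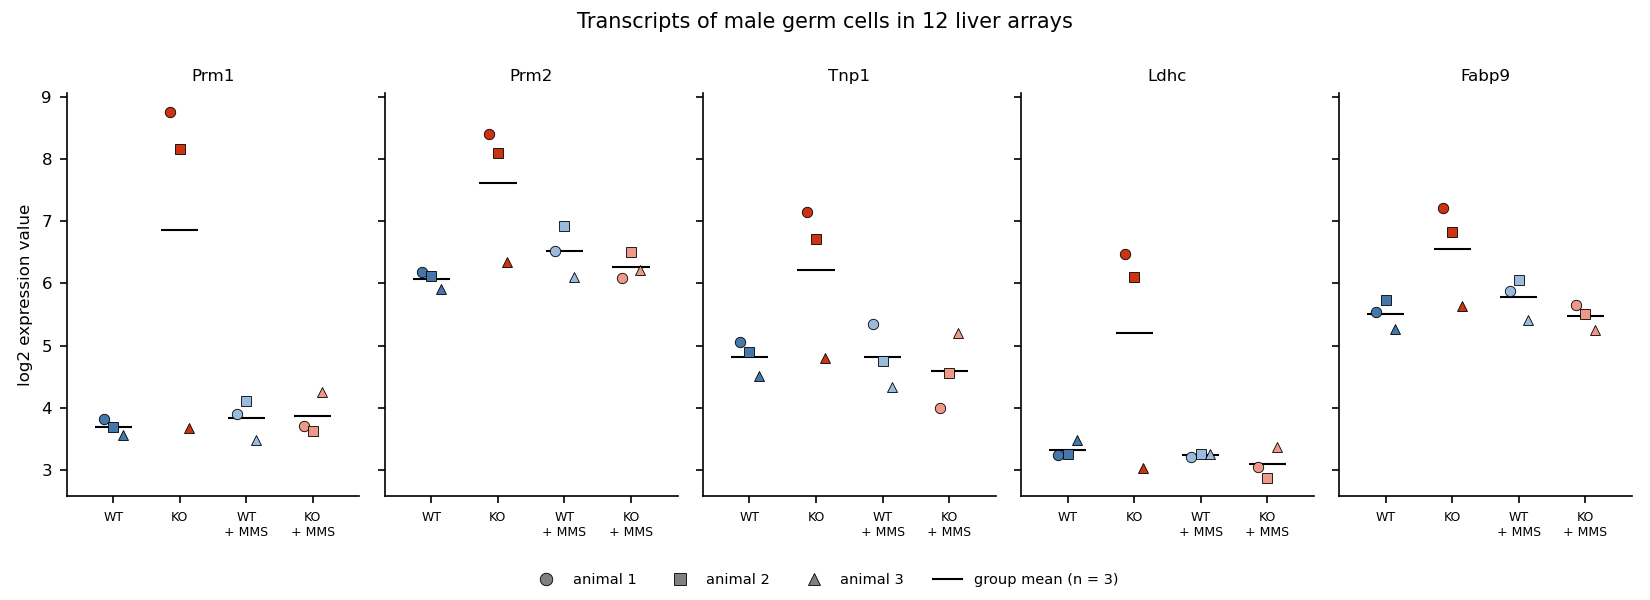
Log2 expression value (vertical axis) of 5 transcripts of spermatids and sperm in wild-type (WT) and knock-out (KO) liver without and with MMS. Each symbol is 1 animal and each line a mean of 3. Untreated knock-out animals 1 and 2 stand above the other 10, with Prm1 at 8.76 and 8.16.

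Of 37 probe sets for 30 measured spermatid and sperm genes, 13 (35.1%) had knock-out arrays 1 and 2 above the other 10, against 540 of all probe sets (2.39%). Fabp9, a lipid-binding protein of sperm, was among them at 7.22 and 6.82. The share was 1 of 7 probe sets for genes of earlier germ cells and 0 of 8 for genes of Leydig and Sertoli cells, the somatic cells of the testis. With all 3 knock-out arrays none of these genes was called between the genotypes. Without knock-out array 3 limma called the first and second Prm1 probe sets described above (4.77 ± 0.26 and 4.73 ± 0.55), but not the brightest (0.08). It also called a probe set each of Ldhc (2.97 ± 0.17), Prm2 (2.17 ± 0.23) and Iqcf3 (1.66 ± 0.24). These 5 were among the 18 probe sets called in that setting, 8 of which were also among the 9 called with all arrays. Array 3 held the lowest knock-out value at each of the 5. Leaving it out largely fixed these calls, which are no test of genotype. Meig1 was high in all 3 knock-out arrays (5.57, 5.48 and 5.87 against 4.50, 4.65 and 4.59) and so did not follow this pattern. At other germ cell probe sets array 3 was the highest of all arrays, with 6.27 for Zpbp, 6.21 for Acr, 6.53 for Crisp2 and 6.93 at a Dazl probe set. It therefore cannot be taken as free of germ cell transcripts. In array 3, which lay well below arrays 1 and 2 at the 5 probe sets called without it, Pttg1 was at 10.83, against 10.62 and 10.45 in arrays 1 and 2. Nr1d1 was at 10.34 there, against 10.15 and 9.72. With array 3 as the only untreated knock-out, a setting chosen after seeing the data, 51 probe sets were called, 7 of them among the 9.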

How the data were processed

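Liver RNA of 12 mice, 3 in each of 4 groups, was hybridised to 1-colour Affymetrix arrays. The deposited table holds log2 values per probe set made with RMA, per the submitters' processing notes. Its settings are not stated, and the log base was taken from the range of the values. RMA usually brings the arrays to a common scale, so shifts common to nearly the whole transcriptome may be lost. The array medians still differed, from 7.42 to 7.75, and some results above moved when arrays were centred. The number of arrays limits the precision.

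Of 22690 probe sets, 64 controls were set aside. The platform annotation gave 20380 probe sets 1 symbol, 691 several and 1555 none, and 20351 symbols were updated by gene identifier through RefSeq (GRCm38.p6), used only for names, order and promoter letters. For each of 12393 genes the brightest probe set on average over the 12 arrays was used. The table had 0 extra sample columns. limma 3.58.1 in R 4.3.3 fitted 1 mean per group to all 12 arrays (8 residual degrees of freedom), with moderated variances and Benjamini-Hochberg adjustment over 22626 probe sets at 0.05, and was tested on simulated data first. Errors are SE of the fit. Replicates are separate animals by their titles.

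Named genes were Mpg, the genes past the threshold without overlap (up to 12 per direction, filled up by smallest p), up to 4 members of each list by p, and 10 measured neighbours of Mpg on each side. Single genes outside this rule (Akr1d1, Nucb2, Hyou1, Creld2, period genes and others given for their role) were chosen after their values were seen. Lists were described by counts and medians, with no set test. Members and the 43 lists were chosen with earlier results of these data known. Other settings tried were scaling, filters, variance models, a block, probe set rules, covariates and leaving out arrays. Leaving out knock-out arrays 1 and 2 together was added after seeing the data.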

Additional observations from a re-analysis of the deposited data

How the results depend on the processing

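The 24 genes chosen for naming kept the sign of their untreated difference in every setting in which they were measured (18 and 21 of them under the filters on low values). They were chosen for groups that did not overlap, so leaving out arrays, weights, filters and variance models could not turn the sign. Only scaling, covariates and the mean of probe sets could have done so. Against 9 called probe sets, 182 were called with array weights, 51 with knock-out array 3 as the only untreated knock-out, 5 without moderation of variances, and 3 each with the untreated arrays alone and with probe sets averaged per gene. Leaving out single arrays gave 4 to 18. Of the 24 genes 6 were called, against 19 with array weights, 3 with the mean of probe sets, 2 without moderation, and 1 each with the untreated arrays alone and with the clock score as covariate, and 2 to 6 with an array left out. Of 764 list genes 5 were called, against 12 with array weights and with the lone knock-out array 3, 3 each with a trended variance, the mean of probe sets and the 5' to 3' covariate, 2 without moderation, 1 each with the untreated arrays alone and the clock score, and 2 to 5 with an array left out. The lone array is assumed to vary like the other groups. Mpg's first probe set passed only with array weights (-0.93, adjusted p = 0.0435, limma). The difference of genotype effects, called for 0 probe sets, was called for 33 and 30 under the filters, 28 with a trended variance, 2344 with array weights, 20 with 1 probe set per gene, 3 with the mean of probe sets, 514 when both knock-out arrays 3 were left out, 23 with the lone array, 107 with the clock score and 0 to 158 with an array left out. The cause of these shifts was not tested. Groups share animal numbers, and untreated animals of 1 number did not all deviate together (r = -0.043, 0.261 and 0.165). With the number as a replicate block 6 probe sets were called, all among the 9, and Nr1d2, Rfxank and Akr1d1 lost their calls (adjusted p = 0.0797, 0.0887 and 0.0887). Without detection calls, the lowest values cannot be read as presence or absence of a transcript.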
